A study of Mus musculus with 12 samples.

Results

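Accessible chromatin was examined at 8 genes that give spinal motor neurons their identity and their transmitter. They comprised 5 genes for homeodomain transcription factors (Mnx1, Isl1, Isl2, Lhx3 and Lhx4) and 3 genes of acetylcholine handling (Chat, Slc18a3 and Slc5a7), out of 21938 protein-coding genes in the annotation. A domain of accessible chromatin was assigned to a gene when it overlapped a promoter (within 1 kb of an annotated transcription start site, TSS), when it overlapped the gene body, or when the TSS nearest to it belonged to that gene. By this rule 228 of 218562 accessible regions were assigned to the 8 genes. A region was the union of domains from different lists that overlapped by at least 1 bp. The nearest TSS is a convention of distance and does not show which gene a region acts on.

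ATAC-seq, in which a transposase inserts sequencing adapters into open DNA, was applied to mouse embryonic stem cells differentiated as embryoid bodies (EBs) into spinal neurons, and it yielded 12 samples in 6 groups. EBs before patterning and progenitors, exposed for 2 days to 1 µM retinoic acid (RA) and to SAG, an activator of Hedgehog signalling, at 0.5 µM, came from the Ainv15(iCre) line. Neurons at day 4 had received the same RA and SAG throughout, and those of the Ainv15(iFlag.Hoxc6), Ainv15(iFlag.Hoxc9) and Ainv15(iFlag.Hoxc10) lines, here called iHoxc6, iHoxc9 and iHoxc10, were given doxycycline (Dox) at 3 µg/mL over the final 48 h, which switched on 1 Flag-tagged Hox transgene. The control at day 4 was the Ainv15(iFlag.Hoxc6) line without Dox, here called no Dox. Every transgene sat as a single copy at the HPRT locus, so each line stands for 1 integration. Each group had 2 samples, but the authors deposited 1 list of domains per group, made from both. The lists give the start and end of each domain and no read count, so depth is unknown, no value below has a replicate error, and no difference could be set against the spread between replicates.

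In the developing spinal cord, Isl1 and Lhx3 are LIM homeodomain factors that act together with a bridging cofactor to switch on motor neuron genes, while Mnx1 (HB9) keeps the motor neuron programme apart from that of V2 interneurons. Isl2 and Lhx4 are close relatives with partly overlapping roles. Choline acetyltransferase (Chat) makes acetylcholine, the vesicular acetylcholine transporter (Slc18a3) loads it into vesicles, and the high-affinity choline transporter (Slc5a7) takes choline back up. Slc18a3 lies inside the 5′ part of Chat, an arrangement known as the cholinergic gene locus, so these genes share domains here.

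The 6 lists held between 56232 domains, in iHoxc10, and 94875, in EBs, and covered between 17.8 Mb, in iHoxc9, and 29.7 Mb, without Dox. The no Dox list was laid out differently from the others and belongs to another set of sample records. The day given where the list is named is not the day 4 of its label, and a p threshold stands there that the other lists do not carry. The label was followed here, so every no Dox value, and every count over the 4 day 4 lists, rests on that label, and the calling settings of this list may differ. Record set and calling settings cannot be told apart from the absence of Dox in any comparison with it, nor can cell line outside the comparison with iHoxc6. Cell line likewise cannot be told apart from stage when day 4 is compared with progenitors. Labels were checked against the promoters of marker genes. The pluripotency genes Pou5f1, Nanog and Zfp42 had a promoter domain in 3 of 3 cases in EBs, 1 of 3 in progenitors and 0 of 3 in each day 4 list. The neuronal genes Tubb3, Elavl3 and Stmn2 had one in 3 of 3 cases in every list, EBs included. These markers set the earlier lists apart from day 4 but gave the same counts in all 4 day 4 lists. They therefore cannot check the day or the treatment on the no Dox label. The cultures hold interneurons beside motor neurons, and in such bulk material fewer cells of a type and less accessibility per cell cannot be told apart. Of 8 interneuron markers (genes such as En1, Gata3 and Sim1), a promoter domain was found for 8 without Dox and for 6, 6 and 5 in iHoxc6, iHoxc9 and iHoxc10, and their summed covered length was 24712, 19011, 15815 and 12160 bp in that order. Their part in the values below was not tested.

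Taken as a set, with a shared domain counted once, the 8 genes had 72 domains in EBs, 89 in progenitors and 110 without Dox, and 103, 77 and 73 in iHoxc6, iHoxc9 and iHoxc10. These domains covered 15931, 16937, 34780, 26478, 15915 and 23025 bp, in the same order. The share of each list's covered length that lay at the 8 genes was 0.0691% in EBs and 0.0659% in progenitors, against 0.117% without Dox and 0.107%, 0.0896% and 0.114% in iHoxc6, iHoxc9 and iHoxc10. All 4 day 4 lists thus gave the 8 genes a larger share of their length than either earlier list, although iHoxc9 covered no more of them in bp than EBs did. The plot of covered length by gene shows where this length lay.

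**Figure D1:**
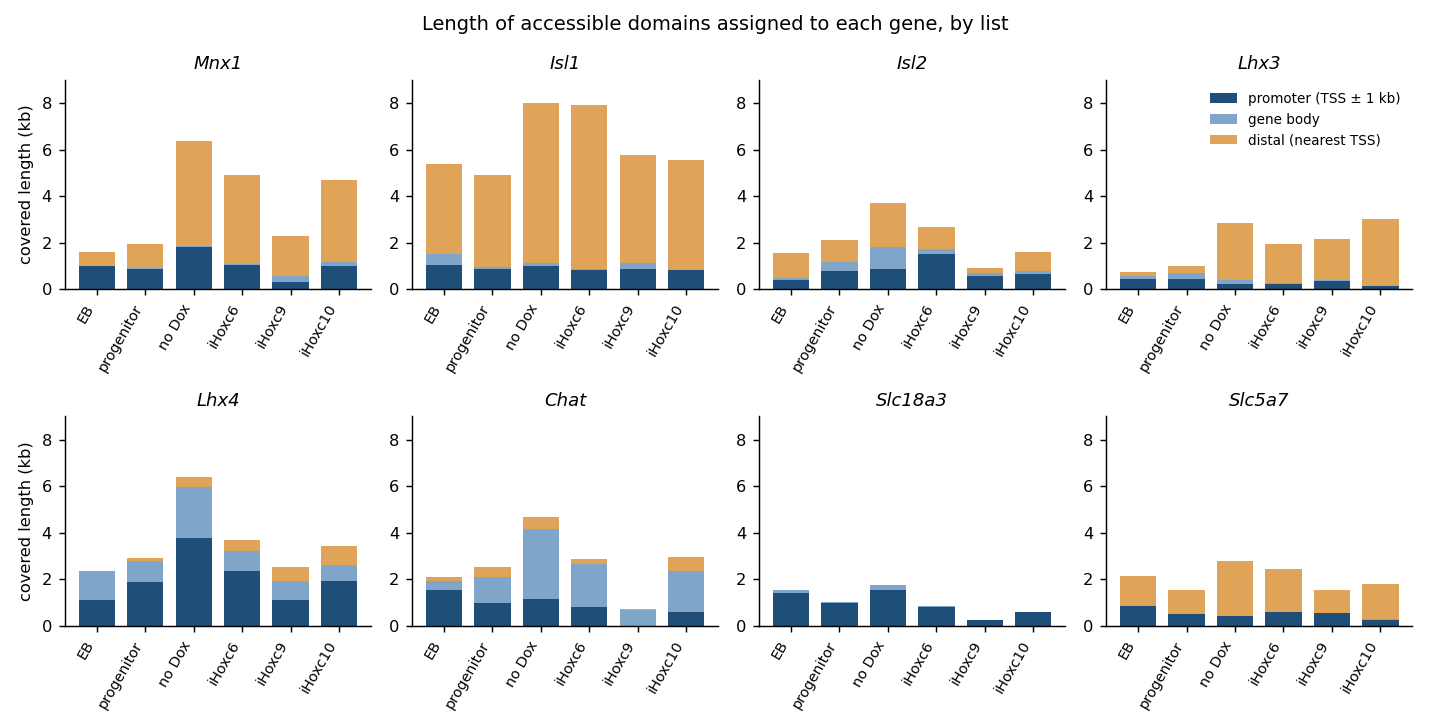
Stacked bars give the length of the accessible domains assigned to each of the 8 genes (kb) in each of the 6 lists, split into promoter, gene body and distal domains, with 1 list per group and no error. The bars are mostly distal for Mnx1, Isl1, Lhx3 and Slc5a7 at day 4, and the Chat bar of iHoxc9 has no promoter part.

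Mnx1, a homeodomain factor of postmitotic motor neurons, lies on chromosome 5 (29473034 to 29478470, minus strand, mm10). Its domains covered 1603 bp in EBs, 1949 bp in progenitors and 6377 bp without Dox, and 4925, 2269 and 4679 bp in iHoxc6, iHoxc9 and iHoxc10. Every day 4 list thus covered more of Mnx1 than either earlier list, with iHoxc9 the lowest of the 4. How many of all genes had this order was not counted. The promoter region, chr5:29477529-29479751, spans the TSS and coding and untranslated sequence. It held 988, 881, 1818, 1056, 299 and 1010 bp in the order of lists just given, so no Dox was highest there and iHoxc9 lowest.

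The stage difference at Mnx1 lay mainly in an intergenic region 5.79 kb upstream of the TSS, chr5:29484256-29487402, the widest of all 228 regions. It held 47 bp in EBs, 343 bp in progenitors and 2918 bp without Dox, and 2436, 1246 and 1986 bp in iHoxc6, iHoxc9 and iHoxc10. The region was therefore present in every list, and it widened with the day 4 lists rather than appearing in them. The central 200 bases of the part common to the 4 day 4 lists are shown, because this region carries the widest change at any of the 8 genes. This window was chosen after the values were seen, and it holds no match to any of the motifs described below. The whole region, of 3147 bp, did hold matches: 3 to TAATTA, 4 to TTTATNG, 11 to CANCTG and 35 to TAAT.
Mnx1, chr5:29485525-29485724, + strand: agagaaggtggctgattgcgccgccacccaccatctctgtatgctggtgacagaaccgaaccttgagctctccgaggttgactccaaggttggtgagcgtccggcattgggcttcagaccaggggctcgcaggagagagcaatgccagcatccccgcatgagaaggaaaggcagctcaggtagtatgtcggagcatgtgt

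Around it, an intergenic region 2.48 kb upstream of Mnx1 (chr5:29480955-29481686) was absent from EBs, progenitors and iHoxc9 and held 727 bp without Dox, 161 bp in iHoxc6 and 294 bp in iHoxc10. An intronic region, chr5:29475531-29475769, appeared in the 3 induced lists and in no other, with 28 bp in iHoxc6, 146 bp in iHoxc9 and 175 bp in iHoxc10. A downstream region 10.0 kb from the TSS, chr5:29467628-29468470, varied little by stage, at 509, 609, 669, 648, 456 and 815 bp. The wide upstream domains and the stable downstream one are visible in the map of Mnx1 and Lhx3.

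**Figure D2:**
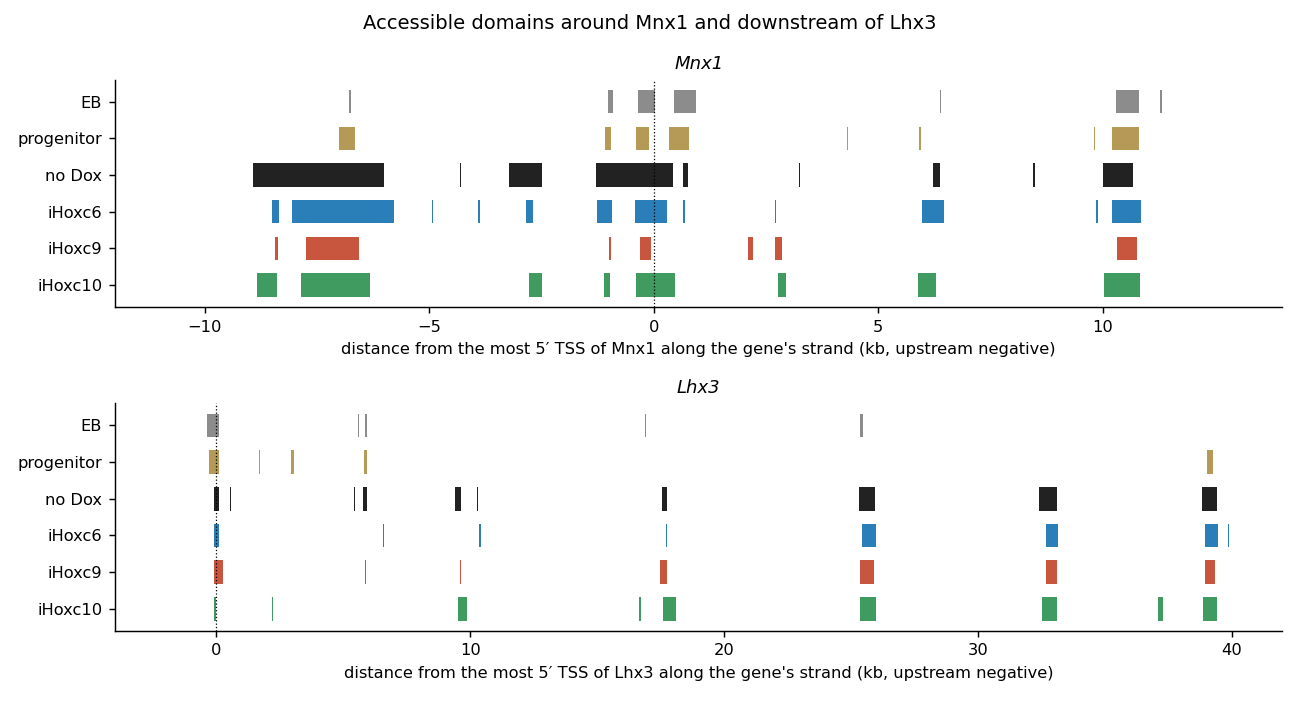
Blocks mark the accessible domains assigned to Mnx1 (top) and Lhx3 (bottom) in each of the 6 lists, drawn to scale against the distance from the most 5′ TSS (kb, upstream negative). The region about 6 to 9 kb upstream of Mnx1 is 47 bp wide in EBs and 2918 bp without Dox, and the 4 day 4 lists share a row of domains 15 to 40 kb downstream of Lhx3.

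Lhx3, the LIM factor that joins Isl1 in motor neurons and acts without it in V2 interneurons, lies on chromosome 2 (26200212 to 26208289, minus strand). Its covered length was 746 bp in EBs, 983 bp in progenitors and 2833 bp without Dox, and 1926, 2142 and 3013 bp in iHoxc6, iHoxc9 and iHoxc10. Every day 4 list thus covered more of Lhx3 than either earlier list. As for Mnx1, how many of all genes had this order was not counted. The promoter did not share this order, since the region at the upstream TSS, chr2:26208012-26208648, held 459, 416, 186, 221, 364 and 88 bp and so was widest in EBs. That region also touches an untranslated exon of the neighbouring gene Qsox2, whose domains cannot be told apart from those of Lhx3 there.

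The added length of Lhx3 at day 4 was distal and downstream. Covered length assigned by nearest TSS alone was 154 bp in EBs and 282 bp in progenitors, against 2414, 1657, 1744 and 2879 bp without Dox and in iHoxc6, iHoxc9 and iHoxc10. An intergenic region 30.7 kb downstream, chr2:26175133-26175866, was in no list before day 4 and held 709 bp without Dox and 487, 469 and 560 bp in iHoxc6, iHoxc9 and iHoxc10. An intergenic region 15.8 kb downstream, chr2:26190189-26190817, was also limited to day 4, with 189, 56, 289 and 512 bp, and was widest in iHoxc10. Further regions flanked them. One at 37.1 kb (chr2:26168838-26169447) was absent from EBs and held 241 bp in progenitors and between 389 and 591 bp at day 4. One at 23.6 kb (chr2:26182283-26182970), picked out after its values were seen, held 114 bp in EBs, 0 bp in progenitors and between 529 and 634 bp at day 4. The centre of the widest day 4 region of Lhx3 is shown as the clearest gain at this gene. It overlaps an exon of the non-coding gene Gm35745 in the RefSeq annotation of GRCm38.p6. Capitals in this and the following sequences mark matches to the motifs described below, here a single ATTA (TAAT on the other strand).
Lhx3, chr2:26175400-26175599, + strand: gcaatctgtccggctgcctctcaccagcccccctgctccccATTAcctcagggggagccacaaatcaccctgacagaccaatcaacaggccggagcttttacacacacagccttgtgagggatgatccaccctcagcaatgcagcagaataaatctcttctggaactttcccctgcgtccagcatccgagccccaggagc

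Lhx4, the paralogue of Lhx3, lies on chromosome 1 (155698031 to 155751684, minus strand) and has a pair of annotated TSSs. It covered 2346 bp in EBs, 2922 bp in progenitors and 6393 bp without Dox, and 3711, 2546 and 3455 bp in iHoxc6, iHoxc9 and iHoxc10. The induced lists thus lay closer to progenitors than to no Dox. Its TSSs differed by stage. The region over the internal TSS, chr1:155741567-155743401, was in every list, at 826, 1251, 1744, 1279, 728 and 1084 bp. The region over the upstream TSS, chr1:155751392-155752186, was absent from EBs and progenitors and held 795 bp without Dox and 541, 224 and 335 bp in iHoxc6, iHoxc9 and iHoxc10. Of the 7 regions that all 4 day 4 lists and no earlier list held, this was the only one at a promoter of the 8 genes. A neighbouring intronic region within 1 kb of that TSS, chr1:155750177-155751126, was already present in progenitors, with 389 bp there and 950, 520, 286 and 621 bp at day 4. An intron of Acbd6, 60.4 kb downstream of Lhx4, held a region (chr1:155680783-155681622) of 40 bp in progenitors and 406, 174, 443 and 840 bp at day 4. It was widest in iHoxc10, and since it lies in another gene its assignment to Lhx4 rests on TSS distance alone. Another region found in every list was an intronic one of 368, 638, 788, 328, 97 and 91 bp in the order of lists (chr1:155728886-155729847), which was narrowest in iHoxc9 and iHoxc10. An intronic region of 213 bp, chr1:155740658-155740870, was held by EBs only.

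Isl2, which is expressed in postmitotic motor neurons, lies on chromosome 9 (55538672 to 55546180, plus strand). It covered 1576 bp in EBs, 2101 bp in progenitors and 3713 bp without Dox, and 2693, 924 and 1581 bp in iHoxc6, iHoxc9 and iHoxc10. No Dox was highest and iHoxc9 was below EBs. The main promoter region, chr9:55540385-55541385, held 406 bp in EBs and 786, 792, 784, 525 and 562 bp in the other lists. A coding region 0.585 kb downstream of a TSS, chr9:55541733-55542716, was absent from EBs and held 115 bp in progenitors and 378 bp without Dox, and 654, 75 and 186 bp in iHoxc6, iHoxc9 and iHoxc10. The iHoxc6 list was therefore the widest at that site. Further into the gene, over coding and untranslated sequence, chr9:55543855-55544392 held 64, 288, 538, 119, 106 and 29 bp. A region in an intron of Scaper, 67.5 kb downstream (chr9:55608685-55609124), held 440 bp in progenitors and 319 bp without Dox, and 321, 142 and 375 bp in iHoxc6, iHoxc9 and iHoxc10 and was absent from EBs.

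Isl1, the LIM factor shared by motor neurons, sensory neurons and several non-neural tissues, lies on chromosome 13 (116298281 to 116309689, minus strand) in a gene-poor interval. The bases nearer to its TSSs than to those of any other protein-coding gene, together with its body, span 961.9 kb. For Mnx1 that span is 67.29 kb and for Lhx3 52.13 kb, so the domain counts of Isl1 are not comparable with theirs. Isl1 covered 5389 bp in EBs, 4891 bp in progenitors and 8018 bp without Dox, and 7922, 5788 and 5546 bp in iHoxc6, iHoxc9 and iHoxc10. This was more than between 96.4% and 99% of protein-coding genes had, depending on the list. Unlike at Mnx1 and Lhx3, the EB value was close to those of iHoxc9 and iHoxc10. The order of stages rested on remote sites. Within 100 kb of a TSS, Isl1 covered 2714 bp in EBs and 1442 bp in progenitors, against 1809, 1854, 1327 and 1107 bp at day 4, so EBs were then highest. The promoter region, chr13:116309303-116310466, changed little, at 1057, 883, 977, 817, 856 and 813 bp, and was widest in EBs.

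Distal regions made up 79 of the 87 regions of Isl1, of which 30 lay upstream and 49 downstream, and 24 were at least 200 bp wide. The lists held 22 of them in EBs, 32 in progenitors and 27 without Dox, and 28, 26 and 16 in iHoxc6, iHoxc9 and iHoxc10. Their covered length was 3864, 3944, 6877, 7041, 4668 and 4733 bp. From progenitors to no Dox the number of distal regions was smaller while the length was larger. Regions under 200 bp wide numbered 19 in progenitors and 12 without Dox, and wider ones 13 and 15. Of the 79, 5 (6.33%) were held by all 6 lists, where 6.50% of all 102347 distal regions were. Regions held by progenitors and all day 4 lists numbered 4 (5.06% against 2.98% of all distal regions), those held by all day 4 lists only numbered 2 (2.53% against 1.18%), and those held only by 2 or 3 induced lists numbered 3 (3.80% against 1.91%). With so few regions, these shares describe the locus and were not tested.

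The sites that appeared at Isl1 lay far from its promoter. An intergenic region 361 kb downstream, chr13:115948213-115948895, was in neither EBs nor progenitors and held 634 bp without Dox and 598, 574 and 594 bp in iHoxc6, iHoxc9 and iHoxc10. These widths were closer to each other than at any other of the 7 regions limited to day 4. An intergenic region 584 kb downstream, chr13:115725279-115725594, was also limited to day 4 but uneven, with 27 bp without Dox and 279, 60 and 219 bp in iHoxc6, iHoxc9 and iHoxc10. The centre of the region at 361 kb is shown because it was the most even gain among the distal sites. It holds 9 TAAT cores, in a window of 32.0% GC.
Isl1, chr13:115948454-115948653, + strand: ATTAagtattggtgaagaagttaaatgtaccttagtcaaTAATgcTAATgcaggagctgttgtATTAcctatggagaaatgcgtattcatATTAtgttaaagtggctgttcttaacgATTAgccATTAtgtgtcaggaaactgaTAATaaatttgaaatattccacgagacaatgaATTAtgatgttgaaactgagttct

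A further 4 distal sites were absent from EBs, already present in progenitors and wider at day 4 without Dox. The region 558 kb downstream, chr13:115750981-115751850, held 239 bp in progenitors and 846 bp without Dox, and 861, 554 and 570 bp in iHoxc6, iHoxc9 and iHoxc10. The region 188 kb upstream, chr13:116497502-116498246, held 203 bp in progenitors and 655, 546, 323 and 544 bp at day 4. The region 245 kb upstream, chr13:116554979-116555548, held 172 bp in progenitors and 469, 381, 218 and 314 bp at day 4. Within day 4 these 3 were narrowest in iHoxc9. The fourth site, 173 kb downstream (chr13:116136179-116136559), held 38 bp in progenitors and 358, 356, 343 and 203 bp at day 4, and was narrowest in iHoxc10. The region 205 kb upstream, chr13:116514508-116515420, was by contrast in every list, at 630, 738, 843, 843, 615 and 743 bp.

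The remaining wide distal sites of Isl1 had other orders. The region 15.1 kb downstream, chr13:116293582-116294288, was in every list, at 462, 304, 472, 627, 32 and 294 bp, and was narrowest in iHoxc9. The region 108 kb downstream, chr13:116201330-116201850, was widest in EBs, at 503 bp, with 199, 208, 383, 64 and 135 bp in the later lists. The region 221 kb downstream, chr13:116087630-116088151, held 522 bp without Dox, 263 bp in iHoxc6 and 35 bp in iHoxc9 and was absent from iHoxc10 and from both earlier lists. EBs held sites of their own, such as chr13:115756642-115757022, of 381 bp, and chr13:116523904-116524205, of 302 bp.

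Of the distal Isl1 regions, 19 were held by 1 induced list only (24.1% against 21.0% of all distal regions, so near the background). A further 3 were shared by 2 or 3 induced lists and held by no other. The widest of these 3, chr13:116633441-116633772 at 324 kb upstream, held 255 bp in iHoxc6 and 229 bp in iHoxc9 and lies within the non-coding gene Gm47914. The region chr13:116508304-116508470, 199 kb upstream, held 51 bp in iHoxc6, 145 bp in iHoxc9 and 115 bp in iHoxc10. The last, 484 kb downstream (chr13:115825322-115825455), held 102 bp in iHoxc9 and 101 bp in iHoxc10. The centre of the widest is shown to set a site found under Hox induction only beside the site common to day 4. It holds 6 TAAT cores and 1 ATCAAT (as ATTGAT), and one pair of matches overlaps.
Isl1, chr13:116633507-116633706, + strand: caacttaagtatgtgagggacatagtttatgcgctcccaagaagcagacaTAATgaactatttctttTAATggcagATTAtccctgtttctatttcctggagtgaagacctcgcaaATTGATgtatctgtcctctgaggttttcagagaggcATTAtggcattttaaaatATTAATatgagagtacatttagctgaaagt

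**Figure D3:**
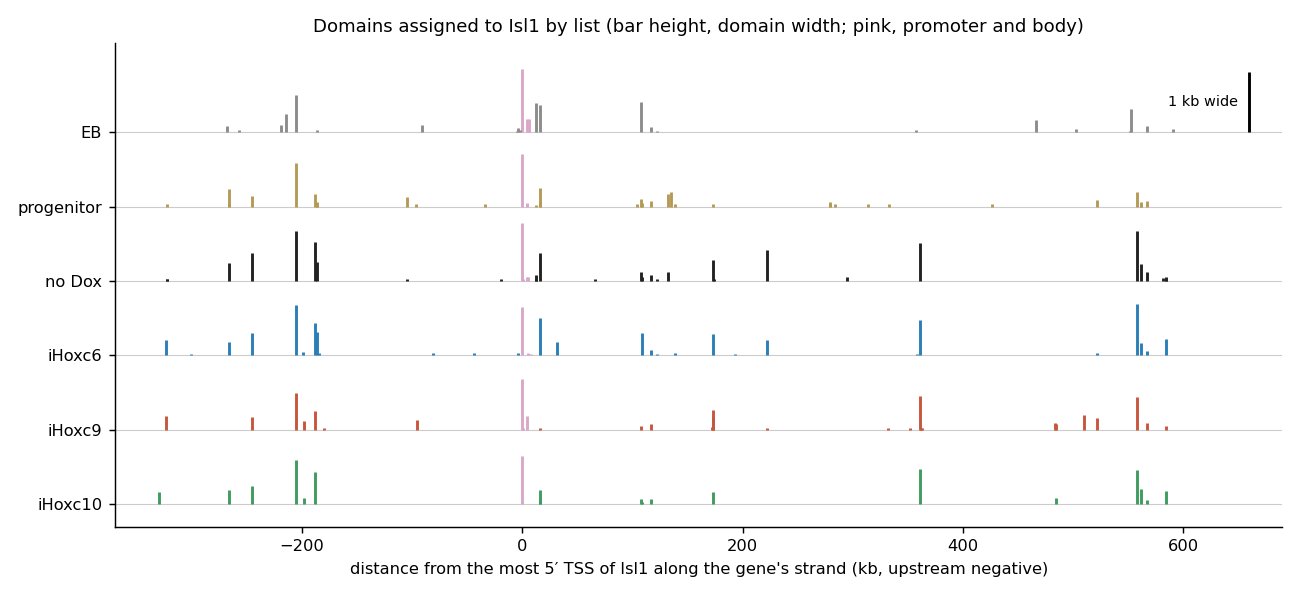
Each vertical bar is a domain assigned to Isl1, placed by its distance from the most 5′ TSS (kb, upstream negative), with the bar height giving the domain width and 1 row per list. The bars at 361 kb downstream are present in the 4 day 4 rows only, with widths between 574 and 634 bp, and those at 205 kb upstream are present in every row.

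Chat and Slc18a3 share the start of the cholinergic locus on chromosome 14 (Chat 32408203 to 32465989, Slc18a3 32462438 to 32464850, minus strand). Chat covered 2124 bp in EBs, 2535 bp in progenitors and 4663 bp without Dox, and 2859, 713 and 2967 bp in iHoxc6, iHoxc9 and iHoxc10. Slc18a3 covered 1527, 1034, 1747, 869, 251 and 621 bp. Both genes were lowest in iHoxc9 and highest without Dox, and they are not independent, since 4 of their regions are the same. With 1 TSS per gene, Slc18a3 took over more of the locus and covered 2076 bp in progenitors, 4132 bp without Dox and 2630, 679 and 2361 bp in iHoxc6, iHoxc9 and iHoxc10. The shared region, chr14:32464429-32465850, covers the TSS of Slc18a3 and untranslated sequence of Chat. It held 1422 bp in EBs, 985 bp in progenitors and 942 bp without Dox, and 811, 220 and 621 bp in iHoxc6, iHoxc9 and iHoxc10. This promoter region was therefore widest in EBs and narrowest in iHoxc9. In iHoxc9 the remaining 220 bp lay more than 1 kb from every Chat TSS, which left Chat without a promoter domain in that list alone.

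The body of Chat differed from its start. Domains within the gene but outside its promoters covered 399 bp in EBs, 1132 bp in progenitors and 3011 bp without Dox, and 1852, 679 and 1740 bp in iHoxc6, iHoxc9 and iHoxc10. An intronic region 31.3 kb downstream of the nearest TSS, chr14:32428952-32429623, was absent from EBs and held 630 bp in progenitors and 672 bp without Dox, and 498, 25 and 433 bp in iHoxc6, iHoxc9 and iHoxc10. An intronic region at 20.7 kb, chr14:32439484-32440247, was also absent from EBs and held 233, 433, 418, 171 and 764 bp in the later lists. Another one at 23.0 kb, chr14:32437382-32437960, was in every list, at 350, 179, 579, 523, 232 and 501 bp. Just upstream of the locus, 2.59 kb from the TSS, chr14:32468578-32468900 was limited to day 4, with 290 bp without Dox and 35, 34 and 224 bp in iHoxc6, iHoxc9 and iHoxc10. It lies within the non-coding gene Gm2990. Its centre is shown as the only region of the cholinergic locus that appeared at day 4 in all 4 lists. It holds 1 TGATTNAT and 1 TAAT (as ATTA).
Chat, chr14:32468639-32468838, + strand: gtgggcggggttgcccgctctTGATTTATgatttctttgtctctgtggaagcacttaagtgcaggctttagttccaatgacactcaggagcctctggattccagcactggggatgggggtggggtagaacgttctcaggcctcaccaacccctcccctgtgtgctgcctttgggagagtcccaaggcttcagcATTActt

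Slc5a7 lies on chromosome 17 (54273590 to 54299034, minus strand) in a span of 727.6 kb. It covered 2147 bp in EBs, 1556 bp in progenitors and 2783 bp without Dox, and 2442, 1533 and 1784 bp in iHoxc6, iHoxc9 and iHoxc10, so the stages overlapped. Within 100 kb of a TSS the values were 1164, 852, 783, 807, 555 and 468 bp, and EBs rather than no Dox were highest. Its promoter region, chr17:54298284-54299125, was widest in EBs, at 842, 513, 430, 557, 555 and 261 bp. A region 139 kb downstream, chr17:54158440-54159301, was limited to day 4 and held 862 bp without Dox and 302, 346 and 566 bp in iHoxc6, iHoxc9 and iHoxc10. A region 386 kb upstream, chr17:54685349-54685597, was limited to the induced lists, with 225 bp in iHoxc6, 242 bp in iHoxc9 and 236 bp in iHoxc10, and the more distant chr17:54859156-54859310 held 41 bp in iHoxc6 and 155 bp in iHoxc10. A small region 106 kb downstream, chr17:54191941-54192200, was in every list, at 46, 19, 145, 248, 172 and 148 bp. The centre of the day 4 region is shown as the only gain of this kind at the choline transporter. It holds 1 TAATTA, 1 CANCTG and 6 TAAT cores, and 3 pairs of matches overlap, as TAATTA contains TAAT on both strands.
Slc5a7, chr17:54158771-54158970, + strand: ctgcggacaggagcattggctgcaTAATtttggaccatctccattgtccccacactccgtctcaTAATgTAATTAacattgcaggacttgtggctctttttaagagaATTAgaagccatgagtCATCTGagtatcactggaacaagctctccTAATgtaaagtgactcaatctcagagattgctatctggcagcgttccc

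The sequences come from the GRCm38.p6 genome, are 200 bases each, and were searched on both strands for TAATTA (a homeodomain palindrome), TTTATNG (posterior Hox), TGATTNAT (Pbx with Hox), CANCTG (the E-box of bHLH factors), ATCAAT (Onecut) and, added after the windows were seen, the homeodomain core TAAT. Of 70802 windows of this length, at the centre of every region at least 200 bp wide, TAATTA was in 5.46%, TTTATNG in 9.51%, TGATTNAT in 4.26%, CANCTG in 45.3%, ATCAAT in 8.23% and TAAT in 55.1%. Among the 2101 such windows of regions limited to the 4 day 4 lists these shares were 9.85%, 23.0%, 9.47%, 55.4%, 19.7% and 83.3%. A TAAT core was therefore in most windows of both sets, and the day 4 windows of Isl1, Lhx3, Chat and Slc5a7 all held at least 1. The sets were not matched for base composition, and its part in these shares was not tested. At least 9 cores, the number in the Isl1 window at 361 kb, were in 0.126% of all windows and 0.476% of those limited to day 4. That number was taken as the cut-off because it was the highest of the printed windows, so its rarity is no test. The match to TTTATNG was missing from all 6 printed windows, which are only parts of their regions. The whole regions held 4 such matches at Mnx1, 1 at Lhx3, 1 at Slc5a7 and 1 at Isl1 (324 kb upstream). Those of Chat and of Isl1 at 361 kb downstream held 0. A match is a run of letters and does not show that a factor was bound.

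Promoters of the 8 genes held domains at every stage. A promoter domain was found in EBs at 8 of 8 genes (69.1% of all protein-coding genes), in progenitors at 8 of 8 (66.5%), without Dox at 8 of 8 (65.4%), in iHoxc6 at 8 of 8 (65.7%), in iHoxc9 at 7 of 8 (62.9%) and in iHoxc10 at 8 of 8 (62.5%). The median promoter length of the 8 genes was 1022.5 bp in EBs, 882 bp in progenitors and 1082 bp without Dox, and 814, 459.5 and 644 bp in iHoxc6, iHoxc9 and iHoxc10, against 513, 589, 665, 535, 381 and 455 bp over all protein-coding genes. With every annotated TSS and 1 kb on each side, promoter presence per gene differed between lists at Chat alone, while the upstream TSS of Lhx4 was covered at day 4 only. This depended on the definition. With 1 TSS per gene, the counts were 6, 7, 7, 8, 6 and 7 of 8 in the order of lists, and with 2.5 kb on each side 8 of 8 genes had a promoter domain in every list, iHoxc9 included. Base composition ran with promoter presence across the annotation. Within 1 kb of a TSS, 5 of 8 genes (Mnx1, Isl1, Isl2, Lhx4 and Slc18a3) had at least 50% GC and at least 0.6 times the CpGs expected from their base composition, against 33.0% of all genes. Of all genes with such a promoter 99.5% had a promoter domain in EBs, and of the others 54.1% did. Lhx3, Chat and Slc5a7, with CpG ratios of 0.508, 0.391 and 0.413, belonged to the others and had one as well.

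Between successive stages, a gene was counted as higher or lower where its covered length differed at least 2-fold and by at least 200 bp. From EBs to progenitors, 0 of 8 genes were higher (9.11% of the 18096 genes compared) and 0 were lower (9.99%). The largest ratio in that step was 1.33, at Isl2. From progenitors to no Dox, 3 of 8 were higher, namely Mnx1 (3.27-fold), Lhx3 (2.88-fold) and Lhx4 (2.19-fold), where 6.15% of all genes were, and 0 of 8 were lower (4.27%). The other 5 genes had ratios between 1.64 and 1.84. The median ratio of the 8 genes was 1.81 in this step, against 1.13 over all genes and a ratio of 1.16 between the lengths of the lists.

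Each induced list was also compared with progenitors. In iHoxc6 1 of 8 was higher, Mnx1 at 2.53-fold (3.32% of all genes), and 0 were lower (5.89%). In iHoxc9 1 was higher, Lhx3 at 2.18-fold (1.61%), and 3 were lower, Isl2, Chat and Slc18a3 (23.3%). In iHoxc10 2 were higher, Mnx1 at 2.40-fold and Lhx3 at 3.07-fold (1.72%), and 0 were lower (15.3%). The median ratio of the 8 genes to progenitors was 1.42, 0.927 and 1.16 in iHoxc6, iHoxc9 and iHoxc10, against 0.944, 0.699 and 0.8 over all genes. These comparisons were added after the data were seen, and they share the progenitor list with each other and with the comparison of no Dox.

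Compared with no Dox, no gene of the 8 was higher in any induced list, against a background of 2.06% of all genes for iHoxc6, 0.906% for iHoxc9 and 0.934% for iHoxc10. In iHoxc6 1 of 8 was lower, Slc18a3 at 0.497 times (5.69% of all genes). In iHoxc9 5 of 8 were lower (29.0%), with ratios of 0.356 for Mnx1, 0.249 for Isl2, 0.398 for Lhx4, 0.153 for Chat and 0.144 for Slc18a3. In iHoxc10 2 of 8 were lower (17.5%), Isl2 at 0.426 and Slc18a3 at 0.355. The iHoxc9 list covered 0.597 times the length of the no Dox list and the iHoxc10 list 0.676 times, so lower values were common there. Against median ratios over all genes of 0.832, 0.612 and 0.699, the 8 genes had medians of 0.702, 0.376 and 0.639 in iHoxc6, iHoxc9 and iHoxc10. Isl1 (0.722) and Lhx3 (0.756) stayed above the median of all genes in iHoxc9, while both genes of the cholinergic locus lay far below it. The plot of ratios shows this spread.

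**Figure D4:**
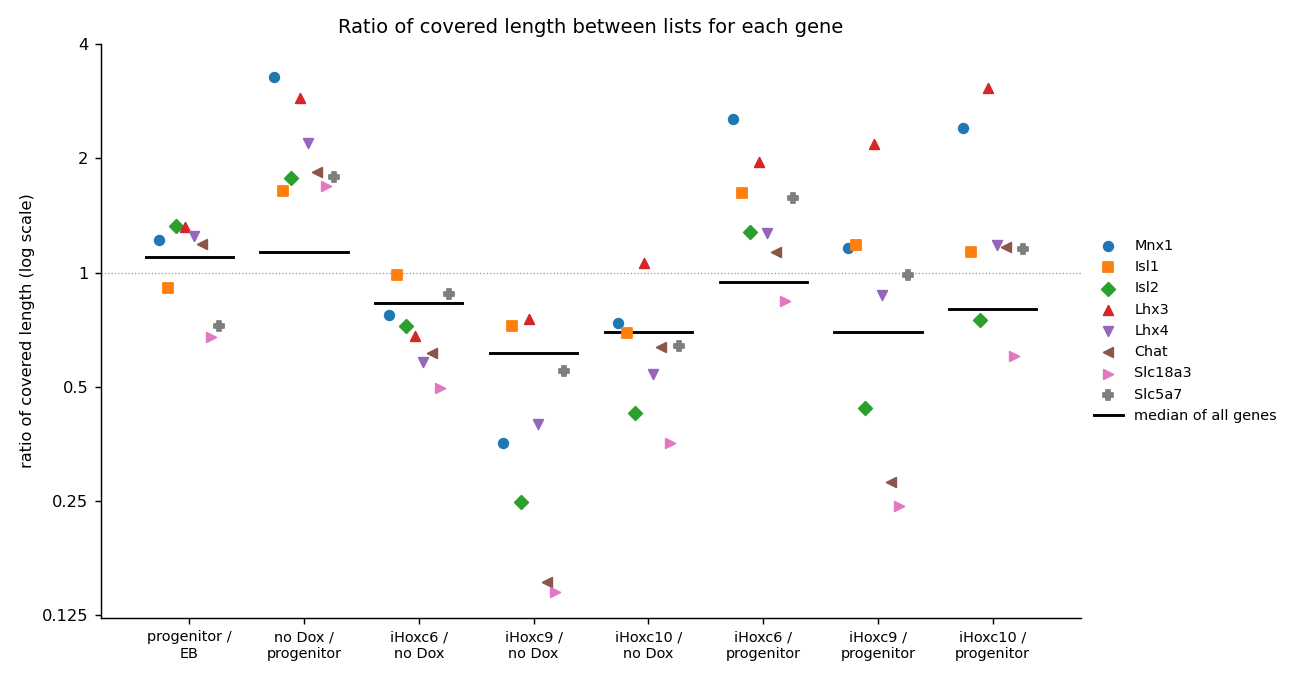
Points give the ratio of covered length between a pair of lists for each of the 8 genes (log scale), and black lines give the median over all genes. Mnx1 and Lhx3 lie highest in the comparison of no Dox with progenitors, at 3.27 and 2.88, and Chat and Slc18a3 lowest in that of iHoxc9 with no Dox, at 0.153 and 0.144.

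The lists that held each region were counted for the 8 genes and for all genes. Of the 228 regions, 19 (8.33%) were in all 6 lists, against 11.2% of all regions. Regions held by progenitors and all 4 day 4 lists numbered 12 (5.26% against 2.77%), and those held by all 4 day 4 lists only numbered 7 (3.07% against 1.07%). Those 7 belonged to Isl1 (2), Lhx3 (2), Lhx4 (1), Chat (1) and Slc5a7 (1), and Mnx1 had none, its upstream region being in all 6 lists. Regions held only by 2 or 3 induced lists numbered 8 (3.51% against 1.70%). EBs alone held 28 (12.3% against 21.1%), and 0 were held by EBs and progenitors and lost by day 4 (1.61% of all regions). Among regions at least 200 bp wide the shares in the same direction were 21.8% against 31.9% for all 6 lists, 15.4% against 8.13% for progenitors and day 4, and 8.97% against 2.97% for day 4 only. Regions of 1 gene share their surroundings and are not independent of each other.

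**Figure D5:**
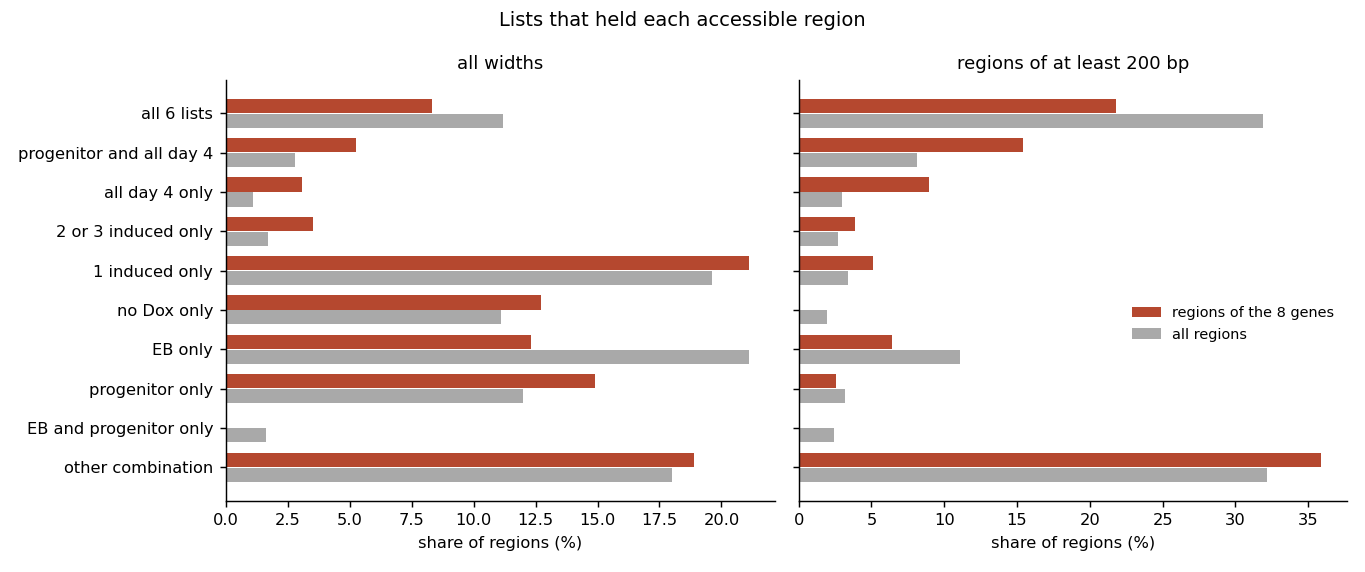
Bars give the share of regions (%) held by each combination of lists, for the 228 regions of the 8 genes and for all 218562 regions, over all widths (left) and for regions at least 200 bp wide (right). The bar for the 4 day 4 lists only is 3.07% against 1.07% on the left and 8.97% against 2.97% on the right.

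The domains of the no Dox neurons were followed into the other lists. Of 51 no Dox domains of the 8 genes that were at least 200 bp wide, 20 were also in EBs (39.2% against 60.2% of all no Dox domains of that width) and 33 were in progenitors (64.7% against 83.7%). Of the same 51 domains, 46 were also in iHoxc6 (90.2% against 90.3%), 35 in iHoxc9 (68.6% against 75.8%) and 41 in iHoxc10 (80.4% against 79.6%). The shares in iHoxc6 and iHoxc10 lay near the background, whereas those in EBs, progenitors and iHoxc9 lay below it. No Dox and iHoxc6 came from the same line, whereas the other lists came from other lines.

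Related genes were set beside the 8. Among 8 other LIM homeodomain genes (Lhx1, Lhx2, Lhx5, Lhx6, Lhx8, Lhx9, Lmx1a and Lmx1b), 1 was higher without Dox than in progenitors (6.15% of all genes). In iHoxc9, 8 of 8 were lower than without Dox (29.0% of all genes), and in iHoxc10 3 of 8 were (17.5%). Their promoters had a domain in 8 of 8 cases in EBs, progenitors, no Dox and iHoxc6 and in 6 of 8 in iHoxc9 and iHoxc10. Summed over them, covered length was 22370 bp in progenitors and 27144 bp without Dox, and 19529, 10549 and 17262 bp in iHoxc6, iHoxc9 and iHoxc10. Isl1 and Lhx3, at 0.722 and 0.756 times no Dox in iHoxc9, were within the 2-fold limit. Isl2 and Lhx4, at 0.249 and 0.398 times no Dox, were lower. How these genes differ from their relatives was not tested.

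Genes that act before and after motor neuron identity is set were counted in the same way. Of 8 genes that specify the lineage (Olig2, Neurog2, Nkx6-1, Nkx6-2, Neurod1, Neurod4, Insm1 and Onecut1), 4 were higher in progenitors than in EBs and 0 were higher without Dox than in progenitors. Olig2, the bHLH factor of motor neuron progenitors, covered 1300 bp in EBs, 5345 bp in progenitors and 6714 bp without Dox. Nkx6-1, a ventral progenitor factor, covered 4220, 11234 and 14272 bp in the same lists. Of 7 genes for LIM cofactors and partners (such as Ldb1 and Lmo4), 0 were higher or lower at either step. Of 6 further cholinergic genes (Ache, Bche, Prima1, Slc10a4, Chka and Slc44a1), 1 was higher without Dox than in progenitors. This was Slc10a4, a synaptic vesicle protein of cholinergic neurons, with 332 bp in progenitors and 1963 bp without Dox. Of 7 motor neuron effector genes (such as Ret, Gfra1 and Nefl), 2 were higher and 2 lower in progenitors than in EBs, and 0 were higher at day 4 without Dox. Over all genes these shares were 9.11%, 9.99% and 6.15%. In iHoxc9, 4 of these 7 effector genes were lower than without Dox, where 29.0% of all genes were. So were 4 of the 8 lineage genes, 2 of the 6 further cholinergic genes and 2 of the 7 LIM cofactors and partners.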

How the data were processed

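Accessible chromatin was profiled in 12 samples. Per the methods of the study and the labels, the authors mapped paired-end reads to mm10 with Bowtie2 (v2.2.2), used Picard (2.8.2) and defined domains with DomainFinder from both replicates of a group together. Its settings were not given in the sources used here, apart from a p threshold that the no Dox list alone carries where it is named. The deposited lists hold domain coordinates in bp and no other score or signal that was used. One list carries additional constant columns, which were not used.

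Starts were read as BED and are printed counting from 1, so positions are uncertain by 1 bp. Chromosomes 1 to 19, X and Y were used with GENCODE M21 (GRCm38.p6), in Python 3.11.15 with NumPy 2.4.6, and plots were drawn with Matplotlib 3.10.9. Covered length is the summed length of a gene's domains. Genes compared had at least 200 bp in at least 1 list, which left 18096 genes. The code was tested on simulated lists. Named regions were up to 2 of the widest in each presence class per gene and distal Isl1 regions of at least 500 bp; others were picked after their values were seen. The 8 genes, the related gene lists and the rules were chosen with earlier results of these data known. Alternatives covered domain width, list length, TSS choice, promoter size, distance, fold threshold, merging of gaps, scaling to list length and omission of the no Dox list.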

Additional observations from a re-analysis of the deposited data

How the results depend on the processing

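Counts were recomputed under 11 alternatives, each applied to the counts it could bear on. Only changes of more than 1.5 times are called moves here. Promoter counts stayed within that limit but were not constant: with 1 TSS per gene they were 6 in EBs, 7 in progenitors, 7 without Dox, and 8, 6 and 7 in iHoxc6, iHoxc9 and iHoxc10. With 500 bp on each side iHoxc6 and iHoxc10 had 7, with domains at least 150 bp wide iHoxc10 had 7, and with 2.5 kb iHoxc9 had 8. Merging gaps of up to 200 bp left 72 distal Isl1 regions. Without the no Dox list, the regions limited to day 4 numbered 10, of which 3 were distal to Isl1; this alternative was chosen after seeing the data. With domains at least 50 bp wide, 0 genes were lower in iHoxc6 than without Dox, 2 were higher in iHoxc6 than in progenitors and distal Isl1 regions numbered 40. At 150 bp these last counts were 4 and 27. With all lists cut to the 56232 widest domains, 0 genes were lower in iHoxc6 than without Dox, while 5 in iHoxc9 and 2 in iHoxc10 were lower as before, and distal Isl1 regions numbered 40. With 1 TSS per gene, 0 genes were lower in iHoxc6 and 1 in iHoxc10 than without Dox. With covered length as a share of its list, 0, 3 and 0 genes were lower in iHoxc6, iHoxc9 and iHoxc10 than without Dox, and 2 were higher in iHoxc6 than in progenitors. At 1.5-fold, 8 genes were higher without Dox than in progenitors, and 3 were lower in iHoxc6 and 5 in iHoxc10 than without Dox. Against progenitors, 4 were then higher in iHoxc6 and 1 was lower in iHoxc10. The share of all genes was not counted at 1.5-fold or under the other alternatives, so these counts have no background. The no Dox list was itself 1.16 times as long as the progenitor list. With regions at most 100 kb from the TSS, 1 gene was lower in iHoxc10 than without Dox, and distal Isl1 regions numbered 15, with 0 limited to all day 4 lists and 0 shared by 2 or 3 induced lists only. Of 48 covered lengths, 12 moved at 100 kb (all of Isl1 and Slc5a7), 5 with 1 TSS per gene (all of Slc18a3) and 3 at 150 bp. With 1 list per group, no replicate could be left out. No paired analysis was possible because the result comes from no test.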
